A study of Mus musculus with 12 samples.

Results

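The genes described here are 10 imprinted mouse genes with roles in growth: H19, Igf2, Igf2r, Cdkn1c, Meg3, Dlk1, Peg3, Mest, Grb10 and Plagl1. They were taken by symbol from the deposited table of 37310 genes, and each symbol matched 1 Ensembl mouse gene. They were chosen by their imprinting and by the H19 counts of the untreated lines, known from earlier results of these data to differ, so values without PMA are a description. Counts of calls without PMA stand beside their background only, and nothing is read from them. Of the 10 genes, 9 passed the filter on low counts and were tested among 16630 genes, and Dlk1 did not pass it.

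Total RNA was sequenced from 2 mouse lines derived from embryonic fibroblasts. One is labelled as a knockout of HP1γ, the heterochromatin protein encoded by Cbx3 (the KO-labelled line), and the other as the same kind of cells given HP1γ back (HPg). Both were grown in DMEM with 10% fetal calf serum, untreated or with 100 nM of the phorbol ester PMA, an activator of protein kinase C, in DMSO for 30 min. The 4 groups hold 3 libraries each, which the series calls biological triplicates. The sources used here do not give the vehicle of untreated cells. A single line stands for each genotype, so line and genotype cannot be told apart, and each p-value reflects the spread among cultures of the lines.

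An imprinted gene is expressed mainly from 1 parental copy. The choice is set in the germ line by DNA methylation at control regions, and the silenced copy of such a region also carries methylated histone H3, the mark that HP1 proteins bind. Mice express H19, Meg3, Grb10, Cdkn1c and Igf2r mainly from the maternal copy in most embryonic tissues, and Igf2, Dlk1, Peg3, Mest and Plagl1 mainly from the paternal copy. Many of them act on fetal growth, and several fall in level after birth. Counts per gene do not separate the parental copies.

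Several of these genes hold microRNAs, and their mature sequences are shown because their hosts include H19 and Meg3, which were higher in 1 line, and Mest, which varied most with the replicate number. They are from RefSeq (GRCm38.p6), 5′ to 3′, with the seed (bases 2 to 8) in capitals.
mmu-miR-675-5p: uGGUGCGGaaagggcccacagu
mmu-miR-675-3p: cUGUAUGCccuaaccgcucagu
mmu-miR-770-5p: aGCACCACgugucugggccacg
mmu-miR-335-5p: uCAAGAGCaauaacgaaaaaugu
H19 hosts both arms of miR-675, Meg3 hosts miR-770 and Mest hosts miR-335. The 4 seeds differ, and no other mature microRNA in the RefSeq table had any of them. In the annotation, the 84 bases of Mir675 lie within H19 exons, in a transcript of 2460 exon bases in 3 exon blocks on chromosome 7. The rows of Mir675, Mir770 and Mir335 held 0 counts in all 12 libraries, which allows up to 0.0269 CPM (counts scaled to a common library total) in the shallowest library. Directional libraries of total RNA measure host transcripts rather than mature microRNAs, and the sources used here do not give how reads shared by a host and its microRNA were assigned.

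RefSeq promoters, 250 bases before to 50 after a start site, were matched for 8 of the 10 genes, 15 windows in all. Those of Meg3 and Grb10 are printed because these members were higher in the same line. Capitals mark TGCCGC, the core letters that the imprint-maintaining factor Zfp57 binds when methylated, here found on the opposite strand as GCGGCA.
Meg3 promoter (chr12:109540746-109541045, + strand): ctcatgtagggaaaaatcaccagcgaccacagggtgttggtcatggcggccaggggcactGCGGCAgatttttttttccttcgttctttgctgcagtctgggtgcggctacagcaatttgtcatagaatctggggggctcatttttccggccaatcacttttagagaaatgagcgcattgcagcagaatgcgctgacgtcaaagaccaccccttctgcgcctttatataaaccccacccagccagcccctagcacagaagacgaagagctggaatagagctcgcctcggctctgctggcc
Grb10 promoter (chr11:12037371-12037670, - strand): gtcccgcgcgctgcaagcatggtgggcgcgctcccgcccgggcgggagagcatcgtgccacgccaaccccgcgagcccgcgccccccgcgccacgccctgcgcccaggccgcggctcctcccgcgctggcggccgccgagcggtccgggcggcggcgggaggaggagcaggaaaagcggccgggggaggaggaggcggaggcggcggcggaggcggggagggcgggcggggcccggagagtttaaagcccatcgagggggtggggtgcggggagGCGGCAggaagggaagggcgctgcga
TGCCGC was searched on both strands. It stood in 6 of the 15 windows, from 5 of the 8 genes (Igf2, Meg3, Mest, Grb10 and Plagl1), and 2 of the Mest windows overlap almost fully. Of all 32851 RefSeq mouse promoters, 11.61% held it. That is a share of windows, as is 6 of 15. No share of all genes was counted to set beside the 5 of 8 genes. The printed windows are the ones of each gene's 2 that held it. The printed Grb10 window had 45 CG dinucleotides, the 98.4th percentile of all promoters, and the printed Meg3 window had 13, the 63.7th percentile. The other windows of Grb10 and Meg3 had no TGCCGC, and 9 and 1 CG dinucleotides (percentiles 56.5 and 14.1). A match is a description of these letters and not a binding site.

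Total counts per library ranged from 111458145 to 159929347. Genes detected numbered 17822 in HPg library 2 and 19759 to 20656 elsewhere. Libraries with the same replicate number deviated together from their group means, and the number was used as a block in a second fit. Cbx3 did not differ by the test between the lines: the log2 fold change of the KO-labelled line was -0.08 without PMA (edgeR quasi-likelihood test, adjusted p = 0.838) and -0.28 with PMA (adjusted p = 0.269, and 0.0876 with the block). Its mRNA therefore does not check the labels, and every direction below is that of the KO-labelled line. Of 10 fibroblast markers, 8 averaged at least 1 CPM, while Thy1 and Lum were lower. Of muscle, epithelial, endothelial and blood markers, 1 of 8, 1 of 6, 2 of 5 and 1 of 6 did, and none of 6 neural or 4 liver and yolk sac markers. Myod1, Tubb3, Hbb-bs, Alb and Ttr were at 0 in all libraries. Markers of yolk sac and liver, tissues that express H19 and Igf2, summed to at most 0.105 CPM in any library.

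Set per kilobase of exon, the levels of the 10 genes spanned from Igf2r to Dlk1, and 2 of them stood above the rest. Igf2r, the receptor that binds IGF2 and carries it to lysosomes for degradation, averaged 41.3 ± 1.68 CPM per kb (SD over all 12 libraries). Plagl1, a zinc finger transcription factor that acts on other imprinted genes, averaged 4.83 ± 1.28 CPM per kb. Neither range met that of its neighbours in the order. The middle group ran from Meg3 (0.878 ± 0.558 CPM per kb) through H19 (0.393 ± 0.310), Mest (0.375 ± 0.259) and Peg3 (0.211 ± 0.0556) to Grb10 (0.183 ± 0.0815). Each neighbour in this group overlapped the next over the libraries, so their order is not fixed beyond that spread. Cdkn1c (0.0345 ± 0.0283), Igf2 (0.0132 ± 0.00928) and Dlk1 were lowest. Lengths are from the GENCODE M21 annotation.

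**Figure D1:**
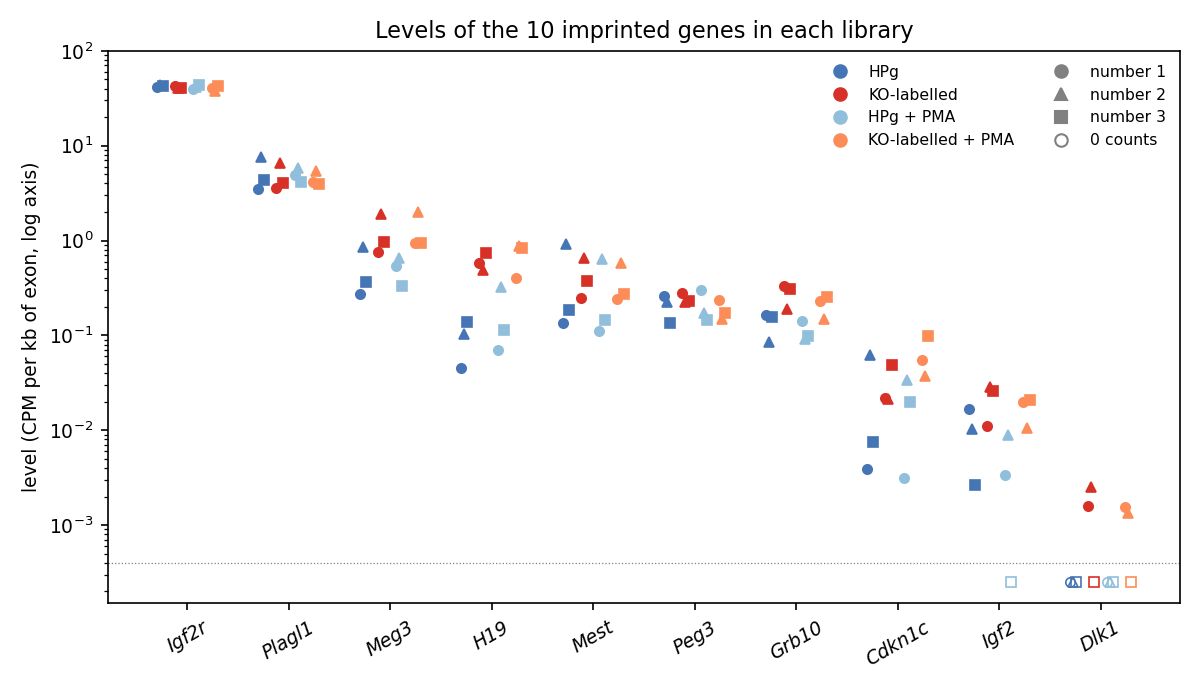
Level of each gene in each library in CPM per kb of exon (log axis), with genes ordered by mean, colours for the 4 groups, symbols for the replicate number, and open symbols below the dotted line for libraries with 0 counts. Igf2r lies between 37.6 and 43.9, Plagl1 between 3.46 and 7.58, and the H19 points of the KO-labelled line lie above those of HPg in each condition.

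Among the maternally expressed genes, H19, a long noncoding RNA that restrains growth, was higher in every library of the KO-labelled line than in any HPg library of the same condition. The untreated HPg libraries had 0.111, 0.252 and 0.342 CPM (14, 30 and 45 counts). The untreated KO-labelled libraries had 1.42, 1.20 and 1.80 CPM (158, 167 and 253 counts). The difference was 2.64 on the log2 scale (SE 0.567), or 6.25-fold, the highest of the 9 genes. With PMA, HPg libraries had 0.175, 0.787 and 0.277 CPM and KO-labelled libraries had 0.995, 2.18 and 2.06 CPM. HPg PMA library 2 was the highest HPg library and still lay below the lowest KO-labelled one.

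Meg3, the noncoding RNA of the Dlk1 cluster on chromosome 12, had 4.90, 15.6 and 6.64 CPM in HPg and 13.7, 34.6 and 17.3 CPM in KO-labelled libraries without PMA. These ranges overlapped, through HPg library 2. With PMA they did not, at 9.86, 11.9 and 5.99 CPM in HPg and 17.1, 36.0 and 17.0 CPM in the KO-labelled line. Without PMA the difference was 1.28 on the log2 scale (SE 0.485), or 2.42-fold. Meg3 had the most counts of the 2 noncoding genes, 620 to 4819 per library.

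Grb10, an adaptor protein that dampens signalling from the insulin and IGF1 receptors, had 1.51, 0.772 and 1.43 CPM in HPg and 2.99, 1.74 and 2.81 CPM in the KO-labelled line without PMA. Its libraries did not overlap. With PMA the values were 1.28, 0.838 and 0.898 CPM in HPg and 2.09, 1.35 and 2.28 CPM in the KO-labelled line, again without overlap. The untreated difference was 1.02 on the log2 scale (SE 0.329), or 2.03-fold. H19 and Grb10 were the members whose lines were separate in both conditions in this direction, as were 4.9% of all genes tested.

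**Figure D2:**
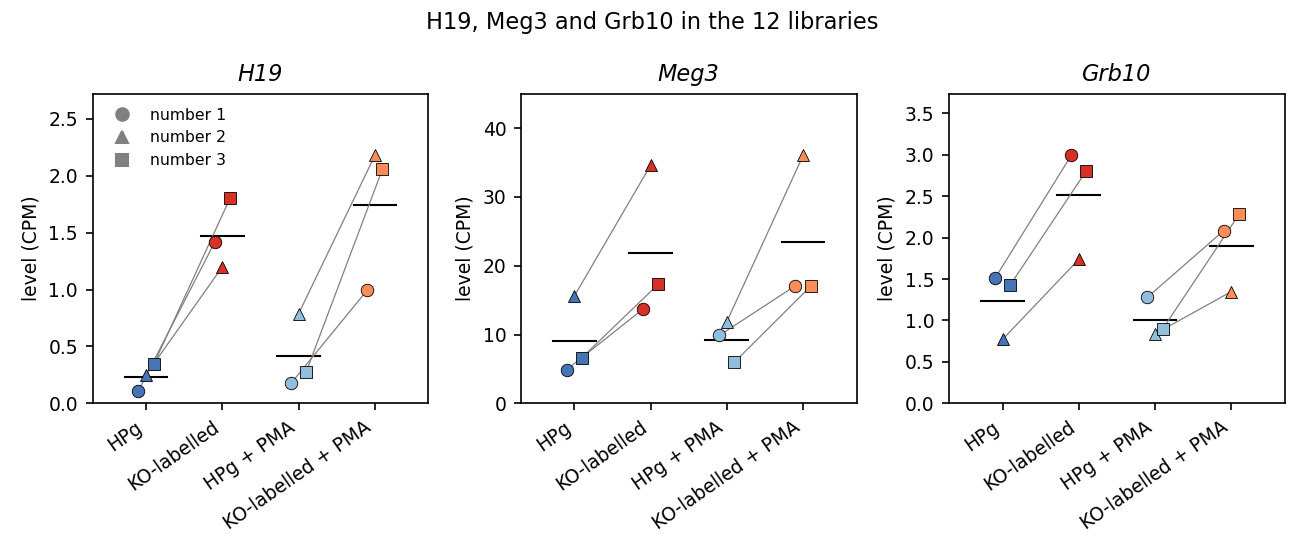
CPM of H19, Meg3 and Grb10 in each library, with horizontal bars for the group means and grey lines joining libraries of the 2 lines with the same replicate number. Every joined pair of each gene runs upward from HPg to the KO-labelled line, and the libraries numbered 2 are highest for Meg3 and lowest for Grb10 in every group.

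Cdkn1c, an inhibitor of cyclin-dependent kinases, was near the detection limit, with 1, 15 and 2 counts in HPg and 5, 6 and 14 in KO-labelled libraries without PMA. With PMA it had 1, 11 and 5 counts in HPg and 13, 10 and 22 in the KO-labelled line, 0.00647 to 0.0698 CPM against 0.0754 to 0.202 CPM. The 15 and 11 counts were those of the HPg libraries numbered 2. An antisense gene overlaps 30.65% of its exon bases in the annotation, and without the strand setting its reads cannot be told from those of Cdkn1c.

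Igf2r differed little between the lines. It had 389 to 401 CPM in untreated HPg and 379 to 393 CPM in the KO-labelled line, a log2 difference of -0.04 (SE 0.119). Replicates lay close together, with an SD of 6.39 CPM around a mean of 394 CPM in HPg. The noncoding gene Airn, transcribed opposite to Igf2r and known to silence its paternal copy, had 47.1 to 126 CPM over all libraries and shares no exon bases with it.

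Among the paternally expressed genes, Igf2, the fetal growth factor next to H19 on chromosome 7, had very few counts. Untreated HPg libraries had 12, 7 and 2 counts and KO-labelled libraries 7, 23 and 21, and these overlapped. With PMA it had 3, 8 and 0 counts in HPg and 13, 8 and 13 in the KO-labelled line. On the CPM scale the PMA groups did not overlap, at 0 to 0.0508 against 0.0603 to 0.120 CPM, but 1 library of each line held 8 counts. Another annotated gene shares 62.83% of the Igf2 exon bases on the same strand. That gene has no row in the deposited table, and its reads cannot be told from those of Igf2. H19 had more counts than Igf2 in every library.

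Dlk1, a transmembrane protein of the Notch ligand family and the paternal partner of Meg3, had 0 counts in all 6 HPg libraries and 0 to 2 in the KO-labelled ones. All were under the limit of 3 counts, so no fold is given.

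Peg3, a zinc finger protein, had 1.81 to 3.43 CPM in untreated HPg and 2.99 to 3.75 CPM in the KO-labelled line. Mest, an enzyme of the alpha/beta hydrolase fold family, had 0.537, 3.60 and 0.729 CPM in HPg and 0.977, 2.59 and 1.46 CPM in the KO-labelled line. Plagl1 had 27.1, 59.2 and 34.0 CPM in HPg and 28.1, 51.5 and 31.6 CPM in the KO-labelled line. For all 3 genes the lines overlapped in both conditions. Their untreated log2 differences were 0.25 (SE 0.312) for Peg3, 0.05 (SE 0.779) for Mest and -0.11 (SE 0.288) for Plagl1. The end of Mest overlaps that of Copg2 on the opposite strand over 23.12% of its exon bases, and Copg2 had 99.2 to 132 CPM.

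Without PMA, H19 was the 1 member called (adjusted p below 0.05 over all genes), against 1.32% of all genes. With the replicate number as a block, H19, Meg3 and Grb10 were called, against 12.5%. H19 and Grb10 did not overlap between the lines and were higher, against 9.57% of genes. The choice of members drew on this comparison, so nothing is read from these counts.

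With PMA, H19, Meg3 and Grb10 were higher in the KO-labelled line in the block fit, and none passed without the block. The choice of members drew on the untreated libraries and was made with earlier results of these data known. The PMA libraries come from the same lines and deviate together with untreated libraries of the same number. The H19 difference with PMA is therefore not independent of the choice, and its p-values are a description. The counts of members with PMA include H19. H19 was 4.20-fold higher (log2 2.07, SE 0.545, 95% interval 0.89 to 3.25, edgeR quasi-likelihood test, adjusted p = 0.0658). With the block its log2 difference was 2.13 (adjusted p = 0.00291). Meg3 was 2.53-fold higher (log2 1.34, SE 0.485, adjusted p = 0.17), and 1.26 on the log2 scale with the block (adjusted p = 0.00154). Grb10 was 1.89-fold higher (log2 0.92, SE 0.330, adjusted p = 0.163), and 0.90 with the block (adjusted p = 0.00898). All 3 same-number pairs were higher for each gene. Thus 0 of 9 members were called, where 2.47% of all genes were, and 3 of 9 with the block, all higher, where 9.49% of all genes were called higher. At an unadjusted p below 0.05, H19, Igf2, Meg3 and Grb10 were higher and none was lower, against 18.4% of all genes in either direction. DESeq2 called 2 members, H19 and Meg3, both higher. It also called more of all genes than edgeR without the block, so the 2.47% is not its background. Its count over all genes is given below.

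Without the block, H19 with PMA was called in 1 of the 12 fits that each left out 1 library. Without HPg PMA library 2 its difference was 2.95 on the log2 scale and passed without the block (adjusted p = 0.0171). In the block fits that left out each library in turn, H19 and Meg3 were called in all 12, at adjusted p up to 0.0231 and 0.0146. Grb10 was called in 11 of 12, and without HPg PMA library 3 its difference was 0.71 (adjusted p = 0.0667). An alternative added with the values known left out the 4 libraries numbered 2. Its block fit called 6 members, all higher: H19, Igf2, Cdkn1c, Meg3, Mest and Grb10. The share of all genes called in that fit was not counted, so nothing is read from this count.

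Igf2 and Cdkn1c also had no overlap between the lines with PMA, with log2 differences of 1.95 (SE 0.879, adjusted p = 0.26) and 1.71 (SE 0.934, adjusted p = 0.355) that did not pass, nor did they with the block (adjusted p = 0.129 and 0.142). Both rested on few counts: leaving out 1 library moved Igf2 to between 1.44 (without HPg PMA library 3) and 3.10 (without HPg PMA library 2), and Cdkn1c to between 1.19 (without HPg PMA library 1) and 2.46 (without HPg PMA library 2), with no call. In all, 5 of 9 members were higher with no overlap (H19, Igf2, Cdkn1c, Meg3 and Grb10), where 12.5% of all genes were, and none was lower. This count holds 4 of the 5 maternally expressed members and 1 of the 4 paternally expressed ones tested. That grouping was made with the values known and was not tested.

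Igf2r, Peg3, Mest and Plagl1 did not pass with PMA in either fit. The log2 differences were -0.06 for Igf2r (95% interval -0.31 to 0.20), -0.16 for Peg3 (-0.84 to 0.52), 0.28 for Mest (-1.42 to 1.98) and -0.14 for Plagl1 (-0.77 to 0.48). The interval of Igf2r was the narrowest of these, and that of Mest the widest. The median over the 9 members was 0.92, the value of Grb10, and over all genes tested 0.01. Above it were H19, Meg3, Igf2 and Cdkn1c, the last 2 on few counts. Without PMA the medians were 0.36 and 0.01, given as a description. Some markers moved with the line as well. Des, a filament gene on the muscle list, was 1.76 higher on the log2 scale in the KO-labelled line with PMA (adjusted p = 0.0328). Summed muscle markers were 21.5 to 70.8 CPM in HPg and 28.7 to 71.7 CPM in KO-labelled PMA libraries, with Myod1 at 0 in all. With the block, the fibroblast genes Col1a1 (0.41) and Col3a1 (0.61) and the epithelial gene Krt8 (2.39) were also higher. None of them passed without it. The block fit called 9.49% of all genes higher. Of 9 fibroblast markers tested, 7 were above 0 and 2 below, Vim (-0.22) and Dcn (-0.81), neither called. Of 3 muscle markers tested, 2 were above 0 and 1 below, Ttn (-0.18). Without PMA the block fit called Col3a1 higher, and Vim and the endothelial gene Kdr lower, where it called 12.5% of all genes. With PMA, summed fibroblast markers overlapped, at 9204 to 14030 against 10580 to 14530 CPM. The part of these cells in the members' levels was not tested.

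**Figure D3:**
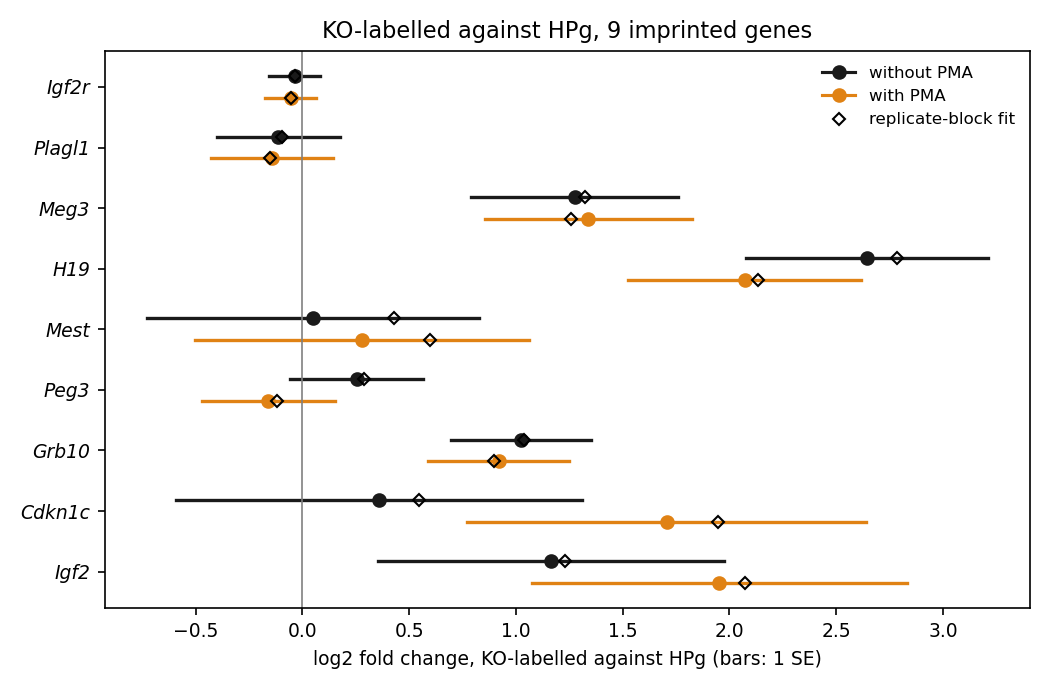
Log2 fold change of the KO-labelled line against HPg for the 9 tested genes (x axis), without PMA (black) and with PMA (orange), with bars of 1 SE and open diamonds for the fit with the replicate number as a block. H19, Meg3 and Grb10 lie right of 0 in both conditions, while Igf2r and Plagl1 lie near 0.

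The level moved with the replicate number in 5 members, in both lines and both conditions. Libraries numbered 2 were highest in all 4 groups for Meg3, Mest and Plagl1, as for 15.36% of all genes, and lowest in all 4 for Grb10, as for 13.51%. The mean of the 4 libraries numbered 2 was 3.26 times that of the others for Mest (2.75 against 0.728 and 0.958 CPM for numbers 1 and 3). The ratio was 2.12 for Meg3, 1.56 for Plagl1 and 0.614 for Grb10. Peg3 was highest in number 1 in all 4 groups, as were 6.957% of genes. For H19 no number was highest or lowest in all 4 groups. Number 2 was highest in 2 groups and lowest in 1, the untreated KO-labelled group, and number 1 was lowest elsewhere. The H19 means were 0.674, 1.10 and 1.12 CPM for numbers 1, 2 and 3. The labels do not give what libraries with a number shared, and its part in these levels was not tested. In bulk RNA, a change in the make-up of a culture and a change in RNA per cell cannot be told apart.

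**Figure D4:**
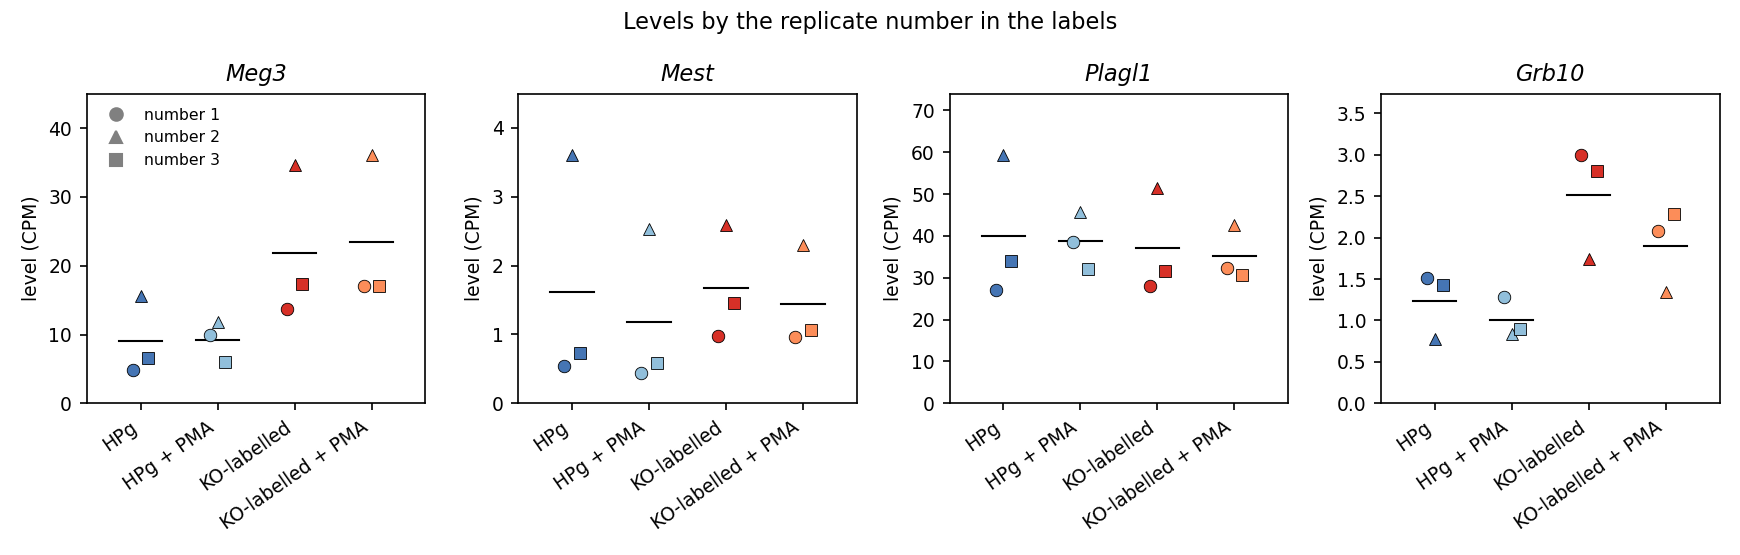
CPM of Meg3, Mest, Plagl1 and Grb10 in each library by group, with symbols for the replicate number and bars for group means. The triangle, number 2, is highest in each group in the first 3 panels and lowest in each group for Grb10.

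PMA itself changed none of the 9 members by the test in either line. In HPg, 0 were called, where 3.45% of all genes were, and in the KO-labelled line 0, where 4.44% were. The block fit also called 0 in both, where it called 14.8% and 13.4% of all genes, and so did DESeq2. No member had an unadjusted p below 0.05, where 17.4% of all genes did in HPg and 15.9% in the KO-labelled line. H19 had a log2 difference of 0.82 in HPg (95% interval -0.39 to 2.02, adjusted p = 0.506) and 0.24 in the KO-labelled line (-0.88 to 1.37, adjusted p = 0.896). The HPg value turned to -0.06 without HPg PMA library 2, the library with 124 H19 counts. Both H19 values used the untreated libraries on which the choice of members drew, so they are a description. Meg3 differed by 0.03 and 0.10 and Grb10 by -0.30 and -0.40, in HPg and the KO-labelled line. Over the members, values ran from -1.17 (Igf2) to 0.82 (H19) in HPg and from -0.41 (Peg3) to 1.03 (Cdkn1c) in the KO-labelled line. No member was free of overlap between PMA and untreated libraries, against 22.7% and 21.8% of all genes. All 3 pairs were lower with PMA for Igf2 and Mest in HPg, and for Peg3, Mest and Grb10 in the KO-labelled line. In that line all 3 were higher for Cdkn1c. Igf2 and Cdkn1c rested on few counts. The share of all genes with such pairs was not counted, so nothing is read from them.

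The PMA effect did not differ between the lines by the test of that difference in any of the 9 members, nor in any of all genes (0% called, and 1.97% at an unadjusted p below 0.05). DESeq2 called 1 gene of all, and no member. For H19 the difference of the 2 effects was -0.57 on the log2 scale (95% interval -2.21 to 1.07). This H19 value also used the untreated libraries on which the choice drew, so it is a description. For Igf2r it was -0.02 (95% interval -0.38 to 0.35).

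**Figure D5:**
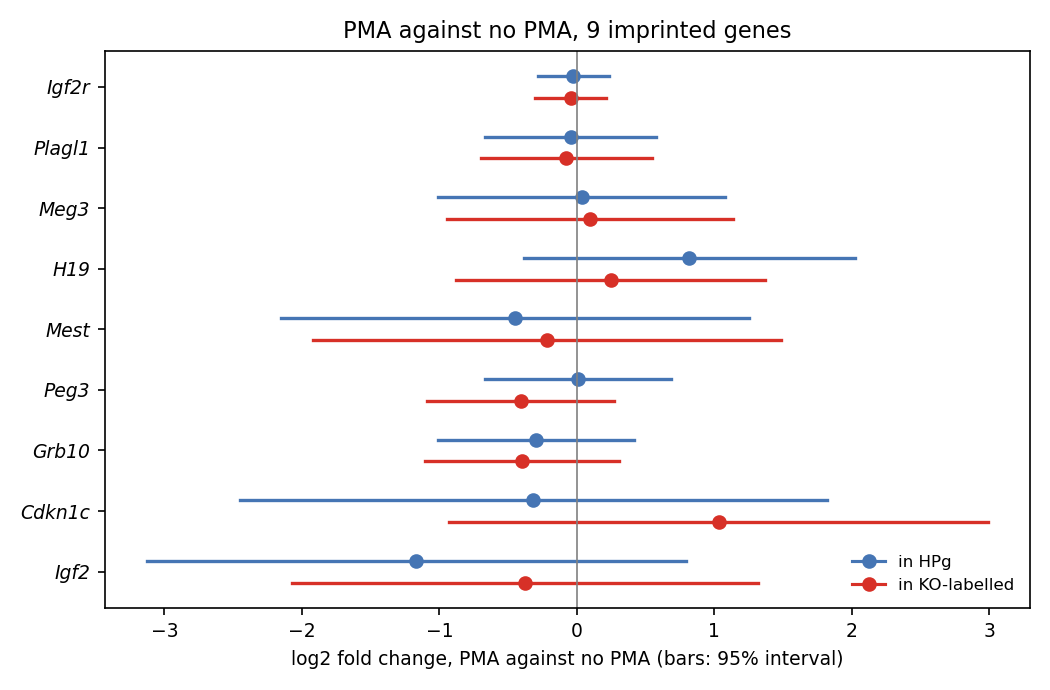
Log2 fold change of PMA against no PMA for the 9 tested genes (x axis) in HPg (blue) and the KO-labelled line (red), with bars for 95% intervals. All intervals include 0, and in both lines that of Cdkn1c is the widest and that of Igf2r the narrowest.

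Of 57 further imprinted genes, 53 were matched in the table and 34 were tested. None was called between the lines in either condition by edgeR. At an unadjusted p below 0.05, 1 was higher and 1 lower without PMA and 6 and 3 with it. The shares of all genes were 14.3% and 18.4%. DESeq2 called 0 and 2 of the further imprinted genes (Slc22a18 and Tspan32), and its counts over all genes are given below. The median log2 difference of the 34 genes was 0.04 without and -0.04 with PMA. With the block, 6 were higher in the KO-labelled line with PMA (Cd81, Tspan32, Slc22a18, Osbpl5, Dio3 and Ppp1r9a) and 2 were lower (Herc3 and Inpp5f), where 9.49% and 9.09% of all genes were. Slc22a18, a transporter gene beside Cdkn1c, differed most of the 8 (log2 1.05, adjusted p = 0.141, and 1.14 with the block, adjusted p = 0.00298). Dio3, the deiodinase gene of the Dlk1 and Meg3 cluster, differed by 0.64 (adjusted p = 0.175, and 0.0148 with the block). Rtl1, the paternally expressed neighbour of Meg3, differed by 1.39 (SE 0.729) and did not pass in either fit. PMA raised Impact, a regulator of the Gcn2 kinase, by 0.69 in HPg (adjusted p = 0.0101) and 0.57 in the KO-labelled line (adjusted p = 0.0216), and lowered Tspan32, a tetraspanin, in HPg (log2 -1.21, adjusted p = 0.0385). The block fit also called Slc22a18 higher in the KO-labelled line without PMA and Ube3a higher with PMA in HPg. It called Cobl and Phactr2 lower with PMA in the KO-labelled line. Its shares of all genes, in either direction, were 12.5%, 14.8% and 13.4% in that order of comparisons.

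IGF signalling, the pathway on which Igf2, Igf2r, Grb10 and H19 act, was followed over 21 further genes, all tested. With PMA, 2.47% of all genes were called between the lines. Of these 21 genes the 1 called was Pappa, the protease that frees IGF from its binding proteins. It fell from 207 ± 19.7 CPM in HPg to 56.4 ± 15.6 CPM in the KO-labelled line (SD, n = 3 each, log2 -1.88, adjusted p = 0.00764), and without PMA it differed by -1.57 (adjusted p = 0.0221). With the block, the IGF-binding protein genes Igfbp2 (log2 1.74), Igfbp5 (1.20) and Igfbp4 (0.72) and the kinase Akt2 (0.34) were also higher with PMA and the transcription factor Foxo3 was lower (-0.27). Without PMA, genes it called higher included Igfbp2, Igfbp5 and Pik3r1. The receptor Igf1r differed by -0.01 (SE 0.286, adjusted p = 0.99). PMA changed none of the 21 genes without the block or with DESeq2. At an unadjusted p below 0.05, 0 passed in HPg, and 2 higher and 1 lower in the KO-labelled line, where 17.4% and 15.9% of all genes did. With the block, Akt1 rose and Insr fell in the KO-labelled line, where it called 13.4% of all genes. Between the lines the block fit called 12.5% of all genes without PMA, and 9.49% higher and 9.09% lower with it.

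Of 28 genes for the upkeep of imprints and for histone and DNA methylation, 25 were tested, and none was called in the 4 comparisons without the block or with DESeq2. At an unadjusted p below 0.05, 0 passed between the lines without PMA, 2 were higher and 6 lower with it, 4 were higher and 1 lower for PMA in HPg, and 2 were lower for PMA in the KO-labelled line. The shares of all genes were 14.3%, 18.4%, 17.4% and 15.9% in that order. With the block and PMA, Zfp57 was higher in the KO-labelled line (log2 0.86, adjusted p = 0.00676), as was its partner Trim28 (0.39, adjusted p = 0.0155). Smchd1, Ehmt1, Eed and Ezh2 were lower, by log2 differences of -0.35, -0.35, -0.38 and -0.37. The block fit also called Zfp57 and Tet2 higher in the KO-labelled line without PMA. For PMA in HPg it called Arid4b, Eed, Smc1a, Suz12 and Tet2 higher, and in the KO-labelled line none. Between the lines with PMA the block fit called 9.49% of all genes higher and 9.09% lower. In either direction it called 12.5% between the lines without PMA, and 14.8% and 13.4% for PMA in HPg and the KO-labelled line. Zfp57 had 1.84 to 4.91 CPM in HPg PMA and 4.71 to 6.85 CPM in KO-labelled PMA libraries.

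Genes tied to let-7 and to proteins that bind H19 RNA numbered 12, of which 11 were tested. Without the block, 1 was called for PMA in HPg, where 3.45% of all genes were. Hmga2, a chromatin protein repressed by let-7, rose with PMA in HPg (log2 1.22, adjusted p = 0.0328), and had 1.04 in the KO-labelled line (adjusted p = 0.0545, and 0.0028 with the block). With the block, PMA lowered the RNA-binding protein gene Igf2bp1 in HPg (log2 -0.53, adjusted p = 0.00210) and in the KO-labelled line (-0.45, adjusted p = 0.00547), raised Hmga1 in both, raised Elavl1 and Igf2bp3 in HPg, and lowered Drosha, of the microRNA-processing machinery, in the KO-labelled line. For PMA the block fit called 14.8% of all genes in HPg and 13.4% in the KO-labelled line. Between the lines it called 12.5% without PMA, and 9.49% higher and 9.09% lower with it. No gene of this list was called between the lines without the block. At an unadjusted p below 0.05, 18.4% of all genes passed between the lines with PMA. Igf2bp3, an RNA-binding protein, was the 1 gene at an unadjusted p below 0.05 and the 1 called by DESeq2, with PMA, and it was lower with the block (log2 -0.53, adjusted p = 0.00107, and -0.27 without PMA, adjusted p = 0.0462).

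Relatives of the members, not imprinted except for Ins2 of the further imprinted genes above, were set beside them by level. Of 10, 8 were tested. The cation-dependent mannose 6-phosphate receptor M6pr had 31.1 ± 3.97 CPM per kb, below the 41.3 of Igf2r, which shares its ligand class. Cdkn1b (30.5 ± 4.70) and Cdkn1a (5.13 ± 3.33), of the inhibitor family of Cdkn1c, were both far above Cdkn1c. Dlk2 had 7.30 ± 1.10 CPM per kb where Dlk1 was at or under the limit. Grb14 had 5.28 ± 2.26 and Grb7 0.00825 ± 0.00615, on either side of Grb10. Plagl2 (1.74 ± 0.288) and Plag1 (1.01 ± 0.174) were below Plagl1, Igf1 (0.114 ± 0.0841) above Igf2, and Ins2 at 0.00609 ± 0.0130. Cdkn1a rose with PMA in both lines, with a log2 difference of 1.51 in HPg (adjusted p = 0.000982) and of 1.89 in the KO-labelled line (adjusted p = 0.000119), where Cdkn1c did not pass. With the block it was also higher in the KO-labelled line with PMA (0.70, adjusted p = 0.00175), and Grb14 was lower with PMA in both lines. The block fit called 9.49% of all genes higher between the lines with PMA. For PMA in HPg and the KO-labelled line it called 14.8% and 13.4%.

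Genes with the pattern most like H19 over the 12 libraries were taken among 11128 genes with a mean of at least 1 CPM, by Pearson correlation of log2(CPM + 0.1). They were Atp8b1 (r = 0.952), Pcdhb20 (0.952), Renbp (0.930) and P2rx7 (0.928). The genes most like Igf2 were Narf (0.867), Mfsd6 (0.836), Parp14 (0.834) and Slc44a1 (0.831), at the 0 to 23 counts of Igf2 per library. Those most like Plagl1 were Trim30d (0.959), Prkab2 (0.952), Ptpn14 (0.944) and Sema5a (0.942). All points share the line difference, the replicate numbers and the library depths, and the correlations are a description.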

How the data were processed

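The deposited values are raw counts, whole numbers whose library totals differ. The submitters' processing notes name genome build mm9 and the tools STAR 2.5.0a, cutadapt 1.11, Subread and featureCounts 1.4.6-p3. The sources used here give neither the annotation release nor the strand setting, nor whether reads or fragments were counted. Symbols, lengths and overlaps are from GENCODE M21 (GRCm38), so no coordinates of counted genes are printed, and sequences are from RefSeq (GRCm38.p6). Of 37310 genes, 32620 had a symbol.

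CPM were computed from the counts with TMM factors. Genes were kept by filterByExpr (minimum count 10, minimum total 15). Differences were tested in R 4.3.3 by the quasi-likelihood F-test of edgeR 4.0.16 (robust, 12 libraries in one fit, 8 residual degrees of freedom), with Benjamini-Hochberg adjustment over 16630 genes and calls at adjusted p below 0.05. It was tested on simulated data. For 3 against 3 libraries the smallest p of an exact permutation test is 0.1.

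The members and the lists were chosen with earlier results of these data known. The rule for named genes took the 10 members, Cbx3, up to 6 called genes per list and comparison in order of unadjusted p, all relatives by level, the 4 genes most like H19, Igf2 and Plagl1, and the nearest neighbours of H19. List genes called with the block alone, Rtl1, Igf1r and Airn were named after their values were seen.

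Replicate numbers pair the samples. Deviations from group means correlated at 0.159 to 0.558 in 18 same-number pairs of libraries, against -0.517 to 0.163 in 36 pairs of unlike number. What a number shares is not stated in the labels. The block fit is given where it changes a call.

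Alternatives were other scaling factors and filters, DESeq2 1.42.0, fits of the compared groups alone, the block, and each library left out. Leaving out the libraries numbered 2, and libraries from the block fit, was chosen after seeing the data.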

Additional observations from a re-analysis of the deposited data

How the results depend on the processing

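The count of members called between the lines without PMA, 1 as reported, was 2 with DESeq2, 0 in a fit of the 2 groups alone, 3 with the replicate block, 2 without the libraries numbered 2, and 0 to 1 when each library was left out. The loss of H19 occurred in 9 of those 12 fits. With PMA the count of 0 became 2 with DESeq2 (H19 and Meg3), 3 with the replicate block, 3 without the libraries numbered 2, and 0 to 1 when a library was left out. With both the replicate block and PMA, 3 became 6 without the libraries numbered 2, and 2 to 3 when a library was left out. For the block fits with libraries left out, the shares of all genes called were not counted. The block changed no other call of a member. Over the alternatives to the fit without the block, 25 differences of single members kept their direction in 489 of 517 values, H19, Meg3 and Grb10 between the lines among them in all.

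Values that turned sign were those of Igf2r between the lines under upper-quartile scaling (0.0021 without and 0.0098 with PMA), Meg3 with PMA in HPg under library-size (-0.0098) and upper-quartile scaling (-0.040) and in the KO-labelled line under library-size scaling (-0.028), and H19 with PMA without the libraries numbered 2 (-0.017 in HPg and -0.076 in the KO-labelled line). With a library left out, values without PMA ran from -0.15 to 2.35 for Cdkn1c, -0.42 to 1.4 for Mest and -0.44 to 0.28 for Plagl1 between the lines, and with PMA from -0.37 to 0.21 for Peg3 and -0.23 to 1.5 for Mest. PMA effects ran from -0.058 to 1.20 for H19 and -0.26 to 0.68 for Meg3 in HPg, and from -0.36 to 0.60 for Meg3 in the KO-labelled line. The H19 interaction ran from -0.95 to 0.31. The cause was not tested.

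Over all genes, the 219, 411, 574 and 739 calls (line without and with PMA, PMA in HPg and in the KO-labelled line) were 775, 1184, 1212 and 1279 with DESeq2 and 2083, 3090, 2462 and 2221 with the replicate block. Fits of the compared groups alone gave 12 and 222 in the first and the third, leaving out the libraries numbered 2 gave 592 and 1359 in the first pair, and leaving out 1 library gave as few as 46, 60, 244 and 295. The split of higher and lower calls, 215 and 196 between the lines with PMA, was 163 and 217 under library-size and 270 and 129 under upper-quartile scaling. For PMA in HPg it was 421 and 153 against 316 and 193 under upper-quartile scaling. For PMA in the KO-labelled line, 468 and 271 became 307 and 424 under library-size scaling, which moved the median of all genes from -0.016 to -0.142. Depth limited Igf2, Cdkn1c and Dlk1, with 0 to 23, 1 to 22 and 0 to 2 counts per library.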

Other observations

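The surroundings of H19 on chromosome 7 were read gene by gene. Nctc1, its nearest neighbour on the side away from Igf2, had 0 to 0.0395 CPM and was not tested. Mrpl23, Tnnt3 and Lsp1, which lie further out on that side, were chosen after their values were seen. Lsp1, an actin-binding protein, was 0.50 higher on the log2 scale in the KO-labelled line with PMA (edgeR quasi-likelihood test, adjusted p = 0.079, and 0.00719 with the replicate block), without overlap in either condition. Mrpl23, a mitochondrial ribosomal protein gene, differed by 0.18 (adjusted p = 0.534) and Tnnt3, a skeletal troponin gene, by 0.24 (adjusted p = 0.46), both with no overlap with PMA, as 12.5% of all genes were in that direction. PMA raised Tnnt3 in HPg by 0.68 (adjusted p = 0.0435) and had a value of 0.57 in the KO-labelled line (adjusted p = 0.0776, and 0.0232 with the block).

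The genes whose levels followed Meg3 and Grb10 most closely over the 12 libraries were also chosen after values were seen. For Meg3 they were Evl (r = 0.961), Cemip (0.959), Slc8a1 (0.959) and Igfbp5 (0.958), and Evl lies on chromosome 12 as Meg3 does. For Grb10 they were Cldn1 (0.960), Mylip (0.960), Abat (0.945) and Serpina1e (0.942).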
